A study of Oryza sativa Japonica Group with 30 samples.

Results

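Gibberellins are growth hormones of plants, and 9 rice genes that make, inactivate, perceive or answer them were read out in developing grains. The 9 genes were taken by their locus identifiers from a table of 55801 genes, 6 of them for gibberellin metabolism and 3 for the receptor and signalling. The RNA came from 30 samples of unripe caryopses, young grains enclosed in their fruit coat, taken 7 days after pollination from plants of Oryza sativa Japonica Group grown in paddy fields. The samples fell into 10 groups of 3. ONAC127 and ONAC129 are NAC transcription factor genes, and the groups were an overexpression line of each, a mutant of each and the wild type ZH11, all grown both under natural heat stress and under normal cultivation. Under heat stress the air exceeded 35 °C for about 6 h daily and reached about 40 °C through nearly the whole of growth. Under normal cultivation it exceeded 35 °C on 3 days, and the daytime mean was about 30 °C. The labels give 14 h of light and 10 h of dark per day for all samples. The promoter of the overexpression lines, the alleles of the mutants and the number of plants behind each sample are not stated in the labels used here.

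The design sets each transgenic line against ZH11 under each condition, and heat against normal growth. For none of these 9 genes can such a comparison be given, because the values analysed here are 1 pooled mean per gene. The 8 tables, each named for 1 line against ZH11, held the same values. The unit is the mean over all libraries of read counts divided by a size factor, named normalised counts here. It is not divided by gene length, so between genes it compares reads and not transcripts. The levels therefore average all genotypes and both conditions and carry no spread between samples, and they say nothing of an effect of ONAC127, ONAC129 or heat. They also cannot show which genes vary like a given gene across samples. In whole caryopses, fewer cells of a type and less RNA per cell cannot be told apart.

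In the pathway, early enzymes build the carbon skeleton in plastids and at the endoplasmic reticulum. GA20-oxidases and GA3-oxidases then finish the bioactive hormone, and GA2-oxidases inactivate it. The hormone binds the receptor GID1, which then takes hold of the DELLA protein SLR1, a repressor of gibberellin responses, and SLR1 is marked for breakdown through the F-box protein GID2. GAMYB is a MYB transcription factor that acts downstream and switches on alpha-amylase genes in the aleurone of germinating rice grains. Short-strawed semi-dwarf rice of the green revolution carries defective alleles of GA20ox2, the SD1 gene.

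The depth sets how finely the levels are known. The lowest values of the table fell on 30 steps between 0.0203 and 0.0605 normalised counts, a step being what a single read adds in a given library. The matching size factors, a measure of relative depth, ran from 0.551 to 1.64. From these steps follow the fewest and the most reads that can stand behind a gene's value, and the largest counting SE it can have. This SE covers counting error only, and reads that are copies of 1 molecule are not told apart. Of the 55801 genes, 40831 lay above 0, with a median of 15.9 normalised counts. The 9 genes all lay above 0, and 6 of them lay above that median. All 8 marker genes listed for the tissues of the caryopsis were read. The 4 of the endosperm (GBSSI, GluA1, GluA2 and NF-YB1) ranged between 4991 and 61910 normalised counts. The 2 of aleurone and embryo were at 21160 (Ole18) and 24670 (LOC_Os04g46200, listed as Ole16). The 2 of the green fruit coat were at 816 (RBCS) and 10679 (LHCB1). The tissue of each marker is as listed and was not tested here.

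The synthesis genes spread over a wide range. GA20ox1 (LOC_Os03g63970, chromosome 3), a GA20-oxidase, had 213 normalised counts with a counting SE of at most 3.59, higher than 80.6% of the genes above 0. GA20ox2 (SD1, LOC_Os01g66100, chromosome 1), the GA20-oxidase defective in semi-dwarf rice, had 58.1 normalised counts with a counting SE of at most 1.87, higher than 63.8% of the genes above 0. The pooled count of GA20ox1 was thus 3.66 times that of SD1.

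The GA3-oxidases, which carry out the last step to the bioactive hormone, were read less. GA3ox2 (LOC_Os01g08220, chromosome 1) had 13.6 normalised counts with a counting SE of at most 0.907, from between 225 and 670 reads over all libraries. GA3ox1 (LOC_Os05g08540, chromosome 5) had 4.34 normalised counts with a counting SE of at most 0.512, from between 72 and 213 reads. Both lay below the median of the genes above 0, at 48.6% for GA3ox2 and 39.8% for GA3ox1. The count of GA3ox2 was 3.14 times that of GA3ox1, a gap much like that within the GA20-oxidase pair.

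The GA2-oxidases, which inactivate gibberellins, lay furthest apart of the 3 pairs. GA2ox3 (LOC_Os01g55240, chromosome 1) had 181 normalised counts with a counting SE of at most 3.31, higher than 78.5% of the genes above 0. GA2ox1 (LOC_Os05g06670, chromosome 5) had 1.61 normalised counts with a counting SE of at most 0.312, from between 27 and 79 reads over all 30 libraries. The count of GA2ox3 was 113 times that of GA2ox1, the lowest of the 9 genes, and lay close to that of GA20ox1.

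The receptor and the DELLA gene stood highest among the 9 genes. GID1 (LOC_Os05g33730, chromosome 5), the soluble gibberellin receptor, had 2925 normalised counts with a counting SE of at most 13.3 and ranked 669 in the whole table, higher than 98.4% of the genes above 0. SLR1 (LOC_Os03g49990, chromosome 3), the DELLA repressor, had 1131 normalised counts with a counting SE of at most 8.27, higher than 95.4% of the genes above 0. GAMYB (LOC_Os01g59660, chromosome 1) had 163 normalised counts with a counting SE of at most 3.14, higher than 77.1% of the genes above 0. GID1 had 2.59 times the count of SLR1, and SLR1 had 6.95 times the count of GAMYB.

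**Figure D1:**
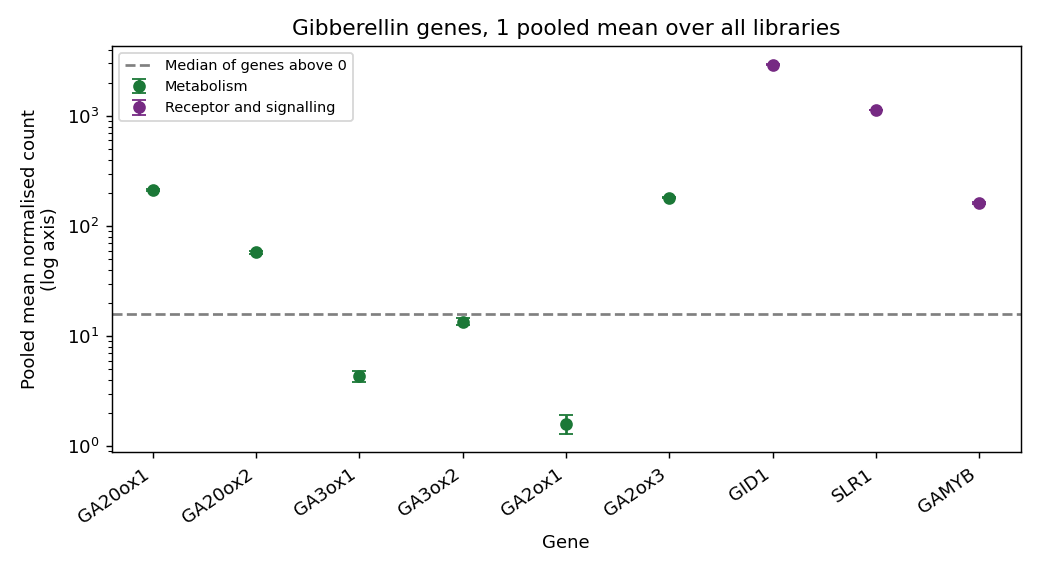
Pooled mean normalised count of the 9 gibberellin genes (log axis), metabolism genes in green on the left and receptor and signalling genes in purple on the right. Bars are the largest possible counting SE and hold no spread between samples, and the dashed line is the median of the genes above 0, 15.9. GA2ox1, GA3ox1 and GA3ox2 lie below the line, GID1 and SLR1 above 1000.

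In order of pooled count the genes ran GID1, SLR1, GA20ox1, GA2ox3, GAMYB, GA20ox2, GA3ox2, GA3ox1 and GA2ox1. Each of the 8 steps in this order was larger than counting error, the smallest being GA2ox3 over GAMYB, a difference of 4.11 times its largest counting SE. Whether any neighbours differ beyond the spread between samples cannot be told from a pooled mean.

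By role, the metabolism genes were read less than the receptor and signalling genes. The median was 35.9 normalised counts over the 6 metabolism genes, which ranged between 1.61 and 213, and 1131 over the 3 receptor and signalling genes, which ranged between 163 and 2925. The ratio of the medians, metabolism over receptor and signalling, was 0.0317. The ranges overlapped, since GA20ox1 and GA2ox3 had higher counts than GAMYB, and of the 18 pairs of a metabolism gene with a receptor or signalling gene the metabolism gene was the lower in 16. Summed, the 6 metabolism genes held 0.00406% of all normalised counts and the 3 receptor and signalling genes held 0.0363%. No test was made, because genes are not replicates of a role. The median over so few genes moved with single members: the ratio ran between 0.0120 (without any 1 of GA20ox1, GA20ox2 and GA2ox3) and 0.0555 (without GID1) when members were left out 1 at a time.

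**Figure D2:**
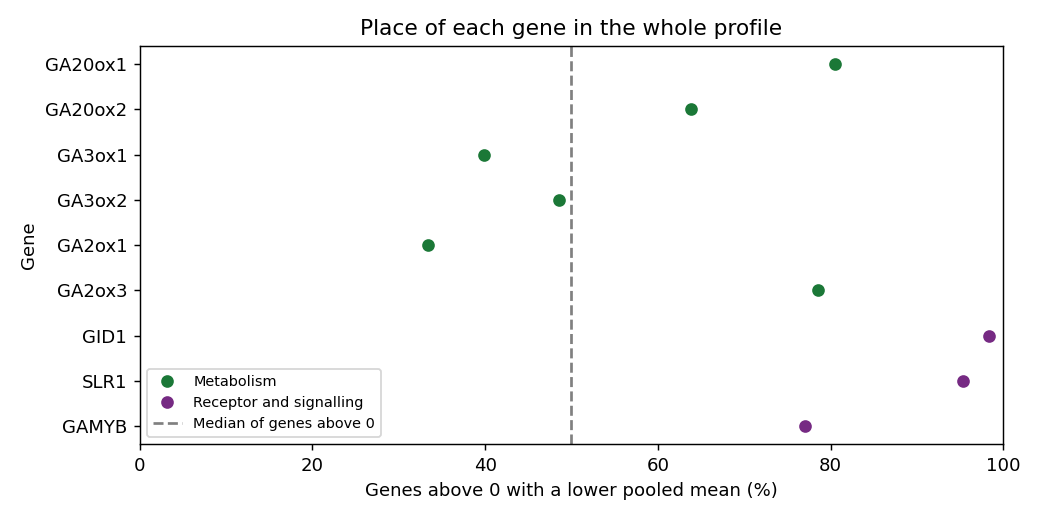
Share of the genes above 0 with a lower pooled mean (%) for each of the 9 genes, metabolism genes in green above and receptor and signalling genes in purple below; the dashed line marks the median. The metabolism genes lie between 33.4% (GA2ox1) and 80.6% (GA20ox1), the receptor and signalling genes between 77.1% (GAMYB) and 98.4% (GID1).

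A length to divide by was available only in part. A gene span in the RefSeq annotation, introns included, was found by symbol for 4 of the 9 genes. Per kilobase of this span, GA20ox2 had 18.6 normalised counts, against 1045 for GID1, 442 for SLR1 and 38.0 for GAMYB, which is the order of the undivided counts. With the other listed genes of the pathway that had such a match, the median per kilobase of span was 17.9 over 7 metabolism genes, which ranged between 0.0401 and 33.9, and 442 over 5 receptor and signalling genes, which ranged between 38.0 and 1045. For these 12 genes the ranges per kilobase did not overlap, and the ratio of the medians was 0.0405, against 0.0799 for the same 12 genes without division. Undivided, their ranges did overlap, since KO2 at 292 and EUI1 at 178 lay above GAMYB at 163. The spans, introns included, were 8604 bp for KO2, 9906 bp for EUI1 and 4287 bp for GAMYB. A scale per transcript length was not available, so whether the lack of overlap would hold on it was not tested. The lack of overlap holds only for the genes with a match: 4 listed metabolism loci with higher counts than GAMYB, among them GA20ox1, GA2ox3 and LOC_Os05g11810, had no span and are not in this comparison.

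**Figure D3:**
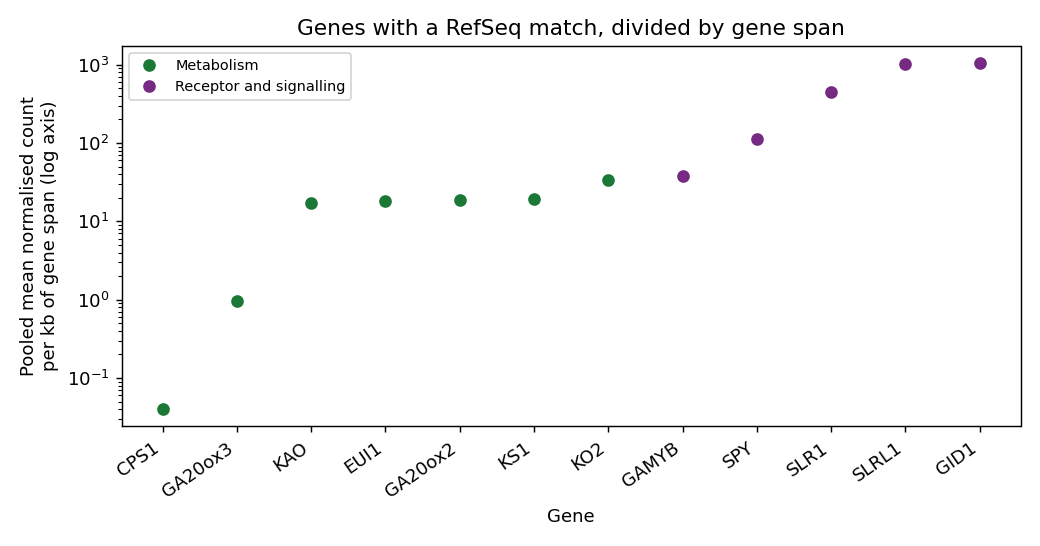
Pooled mean normalised count per kilobase of RefSeq gene span, introns included (log axis), for the 12 listed genes with 1 match, metabolism genes in green on the left and receptor and signalling genes in purple on the right. KO2, the highest metabolism gene, lies at 33.9 and GAMYB, the lowest signalling gene, at 38.0.

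The rest of the pathway was looked at through a list of 19 further genes, of which 18 were above 0 and 13 reached 10 normalised counts. Of all 55801 genes, 40831 were above 0. A value of 10 falls between rank 20999 (GA3ox2, at 13.6) and rank 22337 (a listed locus at 9.16) of the whole table. Of the early steps, CPS1, which makes the first committed intermediate, had 0.403 normalised counts with a counting SE of at most 0.156, from between 7 and 19 reads in all libraries together. The enzymes after it were read more: KS1 had 90.3, the oxidase KO2 (D35) had 292 and KAO had 101 normalised counts. Per kilobase of span, CPS1 had 0.0401, KS1 19.3, KO2 33.9 and KAO 17.4 normalised counts, so that CPS1 was the lowest of the 4 on either scale. GA20ox3, a further GA20-oxidase, had 2.62 normalised counts, below both GA20ox1 and SD1. LOC_Os05g34854, also listed as a GA20-oxidase but not paired with a name in the reference, had 36.9, likewise below both.

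Of the other inactivation genes, EUI1, a cytochrome P450 that epoxidises gibberellins, had 178 normalised counts, near the value of GA2ox3. The 8 further loci listed as GA2-oxidases had a median of 14.3 normalised counts, and 4 of them reached 10. They are given by locus because the reference pairs none of them with a name. The lowest, LOC_Os07g01340, was listed at 0, where 3 reads in the shallowest library would have given 0.181, and the highest, LOC_Os05g11810, had 11010.

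Other signalling genes also had high counts. LOC_Os02g36974, listed as GID2, the F-box protein that leads SLR1 to breakdown, had 3754 normalised counts, beside 2925 for GID1. Several RefSeq genes matched the name GID2 near this place, so whether this count belongs to the F-box gene is not settled here. The locus is 1 of the 7 receptor and signalling genes below. SLRL1, a protein related to SLR1, had 1719 normalised counts, 1.52 times the count of SLR1, and per kilobase of span it had 1027, against 442 for SLR1. SPY, an O-linked sugar transferase known as a negative regulator of gibberellin signalling, had 890 normalised counts. Over all listed genes the median was 36.9 normalised counts for 21 metabolism genes and 1719 for 7 receptor and signalling genes, and all 7 receptor and signalling genes lay above the median of the genes above 0, as did 12 of the 21 metabolism genes. Summed, the 21 metabolism genes held 0.107% of all normalised counts and the 7 receptor and signalling genes held 0.198%, much closer than the sums over the 9 genes. Most of either sum was 1 locus, LOC_Os05g11810 with 0.0948% among the metabolism genes and LOC_Os05g49930 with 0.106% among the signalling genes. RAmy1A, the alpha-amylase gene that GAMYB activates in germinating grain, had 0.574 normalised counts with a counting SE of at most 0.186, from between 10 and 28 reads, while GAMYB itself had 163.

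**Figure D4:**
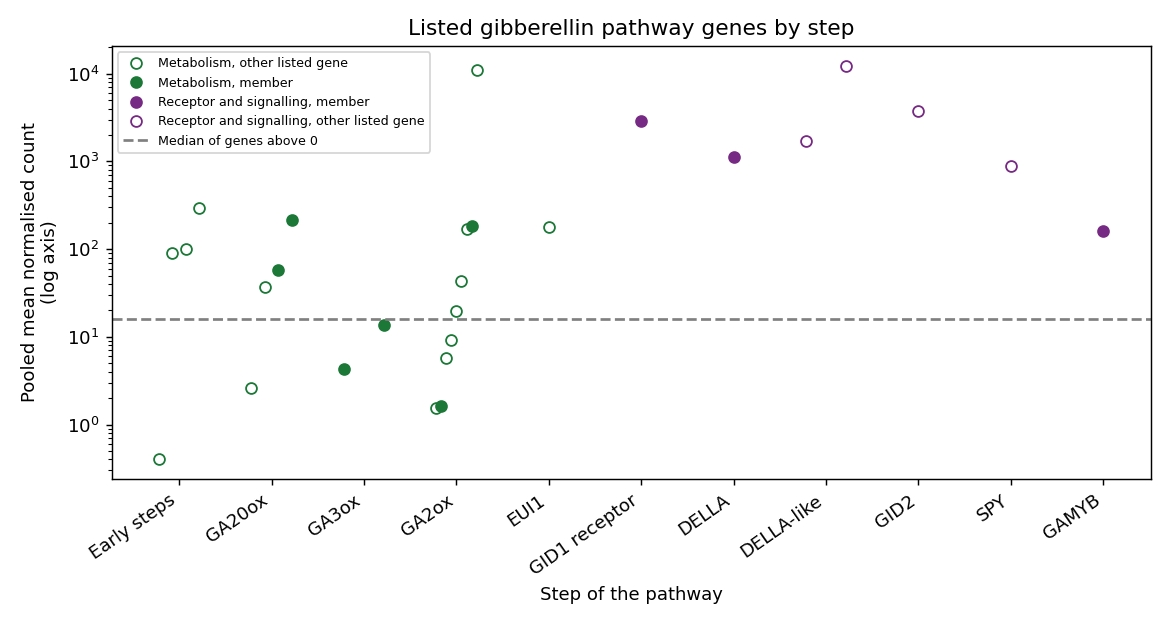
Pooled mean normalised count (log axis) of the listed gibberellin genes by step of the pathway, metabolism steps in green on the left and receptor and signalling steps in purple on the right, with the 9 genes as filled points and the others as open points. The gene listed at 0 among the GA2-oxidases is not drawn. GA3-oxidases lie below the dashed median of the genes above 0, 15.9, and each receptor or signalling gene lies above it.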

How the data were processed

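The tools named in the submitters' processing notes are HISAT2 2.0.5, CASAVA 1.7 and DESeq2. Which counter, build, annotation and strand setting the authors chose is not given in the sources here, so reads of overlapping or antisense genes may not be told apart. Per the file headers, the 8 deposited tables, identical in content, list baseMean by gene identifier: the pooled mean of counts over size factors, a signal. The sheets analysed here hold no column of a sample, error or test, and other sheets, if any, are not analysed here. Groups were read from the sample titles. 0 columns of values per sample were left aside.

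Members, lists and checks were chosen with earlier results of these data known. Locus names come from general knowledge of rice nomenclature. The RefSeq table (ASM3414082v1) carries the LOC_Os form for 0 of 39387 genes, so symbols were sought in it on the same chromosome within 0.1 of the relative place along it. This found GA20ox2, GID1, SLR1 and GAMYB (4 of 9), 9 of 19 further pathway genes, RAmy1A and 7 of 8 markers, and contradicted 0. The names of GA20ox1, GA3ox1, GA3ox2, GA2ox1 and GA2ox3 were not found in it. GID2 had several matches and no span, so its pairing with LOC_Os02g36974 is not settled. All 9 genes are named. Further genes are named where found by symbol, and otherwise given by locus where highest or lowest of the further genes of their step. The planned scale per coding length was not run, since coding lengths are not in the reference, and undivided counts were used.

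Steps were sought among values below 0.08 as those not sums of up to 3 smaller steps within 1e-11, and the fewest genes on any step was 49. The largest counting SE is the root of the value times the largest step. Calculations used numpy 2.4.6 and pandas 2.3.3 in Python 3.11.15, and plots used matplotlib 3.10.9.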

Additional observations from a re-analysis of the deposited data

How the results depend on the processing

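The ratio of medians, metabolism over receptor and signalling, stayed below 1 under every setting run. With 1 member left out it could not have reached 1, so those settings are no separate check. The metabolism median was then at most 58.1, and the receptor and signalling median at least 647. The ratio was 0.0317 as reported, 0.0300 with geometric means and 0.0317 with synthesis genes alone. With synthesis genes alone it could not move, because the median still lay midway between GA20ox2 and GA3ox2. It was 0.0177 without GAMYB, 0.0214 with the wider list, and 0.0120 without any 1 of GA20ox1, GA20ox2 and GA2ox3. It was 0.0514 without any 1 of GA3ox1, GA3ox2 and GA2ox1, 0.0555 without GID1 and 0.0232 without SLR1. Settings chosen after seeing the data gave 0.0405 per kilobase of gene span, 0.0799 undivided over the same 12 genes, and 0.0198 with the wider list less LOC_Os05g11810 and LOC_Os05g49930. With a metabolism gene left out, the metabolism median became the value of GA3ox2, 13.6, or of GA20ox2, 58.1. With a receptor or signalling gene left out, the median of that role became the mean of the remaining genes. The cause of the other moves was not tested. Of the 9 genes, 6 lay above the median of genes above 0, 9 above that of all genes and 5 above that of genes with at least 10. Of the 19 further genes, 18 were above 0, 17 reached 1 and 13 reached 10. Over all 55801 genes, 40831 were above 0. A value of 1 falls between rank 27287 (a listed locus at 1.56) and rank 29837 (RAmy1A, at 0.574) of the whole table. A value of 10 falls between rank 20999 and rank 22337. No paired analysis was possible because each gene has a single value without replicate numbers, and for the same reason no replicate could be left out. A level that differed in 1 group would enter these means with the weight of 3 libraries in 30.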

Other observations

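Loci of the wider list that the reference does not pair with a name gave its highest values, and they were picked out after their values were seen. LOC_Os05g49930 on chromosome 5, listed from general knowledge as a relative of SLR1, had 12358 normalised counts and ranked 96 in the whole table. This was 10.9 times the count of SLR1 and 7.19 times that of SLRL1. LOC_Os05g11810 on chromosome 5, listed from general knowledge as a GA2-oxidase, had 11010 normalised counts and ranked 118, which was 60.7 times the count of GA2ox3. It alone held 0.0948% of all normalised counts, against 0.00406% for the 6 metabolism genes together. Their lengths, and so their levels per length, are not analysed here.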
